A study of Mus musculus with 72 samples.

Results

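The hippocampus of Ts1Cje mice at postnatal day 15 (P15) was compared with that of disomic littermates on 6 of the 72 arrays of the series, 3 per genotype. Ts1Cje is a segmental mouse model of Down syndrome on the C57BL/6 background: the distal part of mouse chromosome 16 (MMU16), from Sod1 to Zbtb21 (formerly Znf295), is present in 3 copies because the additional copy is carried on MMU12. The translocation also leaves a short segment of MMU12 in 1 copy, 6 genes of which were measured, and it is present in every tissue of the animal, so that effects of the triplicated and of the single-copy genes, in the hippocampus or elsewhere, cannot be told apart. The groups were Ts1Cje and wild-type (disomic, C57BL/6) littermates aged 15 days, bred from Ts1Cje fathers and C57BL/6 mothers, untreated and labelled female. Each array held the total RNA of 1 region of 1 mouse, and values are log2 expression values made with gcRMA, on which 1 unit is a 2-fold difference.

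A gene present in 3 copies in place of 2 gives 1.5-fold the transcript if output follows copy number, which is 0.58 on the log2 scale, and a gene in 1 copy gives 1 log2 unit less. At P15 the mouse hippocampus is still being assembled: granule neurons are added to the dentate gyrus, inhibitory synapses mature and oligodendrocytes begin to myelinate. Among the genes of the triplicated segment are Dyrk1a and Rcan1, which act on the calcineurin and NFAT pathway, and Olig1 and Olig2, transcription factors of the oligodendrocyte lineage. It also holds the receptor subunits Ifnar1, Ifnar2, Ifngr2 and Il10rb of interferon and interleukin signalling.

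The members of the disomic group did not follow the labels. The disomic replicate 3 array labelled cerebellum had the profile of hippocampus, and the one labelled hippocampus had the profile of cerebellum. On an axis on which 0 is the mean of the other P15 hippocampus arrays and 1 that of the other P15 cerebellum arrays, the array labelled cerebellum lay at 0.0155 and the array labelled hippocampus at 0.985. The other 5 hippocampus arrays lay between 0.00221 and 0.0468 and the other 5 cerebellum arrays between 0.952 and 1.0. The array labelled cerebellum was therefore used as disomic hippocampus replicate 3, and each call below is also given without it. The 12 measured cerebellar markers averaged 3.59 to 3.73 on the Ts1Cje hippocampus arrays and 3.51 to 3.72 on the disomic ones, the reassigned array included, against 10.36 to 10.69 on the arrays with a cerebellar profile. Gabra6, a receptor subunit of cerebellar granule cells, lay between 1.97 and 2.35 on the 6 hippocampus arrays.

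**Figure D1:**
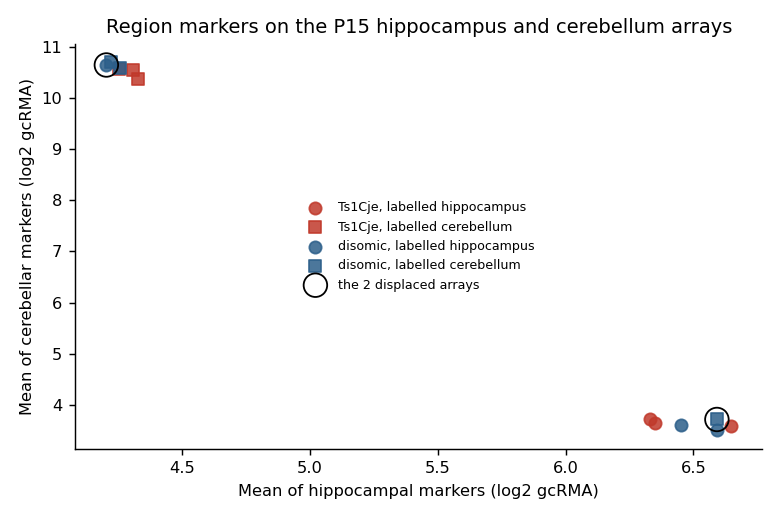
Mean log2 gcRMA value of 26 hippocampal markers (dentate gyrus, CA1, CA2 and CA3; x axis) and of 12 cerebellar markers (y axis) on the 12 P15 arrays of both regions, each point 1 array, coloured by genotype and shaped by the labelled region. The circled disomic arrays lie in the cluster of the region they are not labelled with.

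The 6 arrays were alike in brightness, with upper quartiles of 5.78 to 5.84 (4.97 to 5.93 over all 72 arrays) and pairwise correlations of 0.975 to 0.996 over all probe sets. Xist, the RNA that coats the inactive X chromosome of females, lay at 2.03 to 2.30 in Ts1Cje and 2.18 to 2.29 in disomic hippocampus, while the Y-linked Eif2s3y lay at 8.39 to 8.60 and 8.02 to 8.63, so that all 6 arrays went against the label female in the same way, as did 69 of the 72 arrays. The Ts1Cje arrays were less alike than the disomic ones: over 13779 probe sets with a mean of at least 5, deviations from the group mean had an SD of 0.40, 0.38 and 0.24 on Ts1Cje replicates 1, 2 and 3, against 0.26, 0.19 and 0.21 on the disomic ones. Transthyretin (Ttr), made by the choroid plexus, ranged from 10.6 to 12.6 in Ts1Cje and from 8.52 to 13.7 in disomic hippocampus, and its part in other values was not tested. In bulk tissue, fewer cells of a type and less RNA per cell cannot be told apart.

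The first comparison asked which genes differed between Ts1Cje and disomic hippocampus at P15. Of 45101 probe sets, 9 were called (0.0200%), 8 higher (0.0177%) and 1 lower (0.00222%) in Ts1Cje. A probe set counted as called where the absolute moderated t of limma reached 4 and its p, adjusted by Benjamini-Hochberg, did not exceed 0.05. The 9 probe sets stand for 8 genes. Both changes with the smallest adjusted p values lay in the single-copy segment of MMU12 (Dnah11 and Itgb8), 4 genes were triplicated (Dscam, Donson, Cryzl1 and Get1), and A2ml1 and Slit1 lay outside both segments. At an unadjusted p under 0.05 there were 1809 probe sets.

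The number of calls depended on single arrays. Leaving out Ts1Cje replicate 1 gave 24 calls, leaving out Ts1Cje replicate 2 gave 3 and leaving out Ts1Cje replicate 3 gave 14. Among the disomic arrays, 5 calls were left when replicate 1 was dropped, 6 when replicate 2 was dropped and 5 when the reassigned array was dropped. With both displaced arrays left out it was 5, and all 5 were among the 9. Dnah11, Itgb8 and A2ml1 were called in each of these fits. In a fit of the 6 arrays alone, Dnah11 was the only call, and Itgb8 and A2ml1 were lost.

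**Figure D2:**
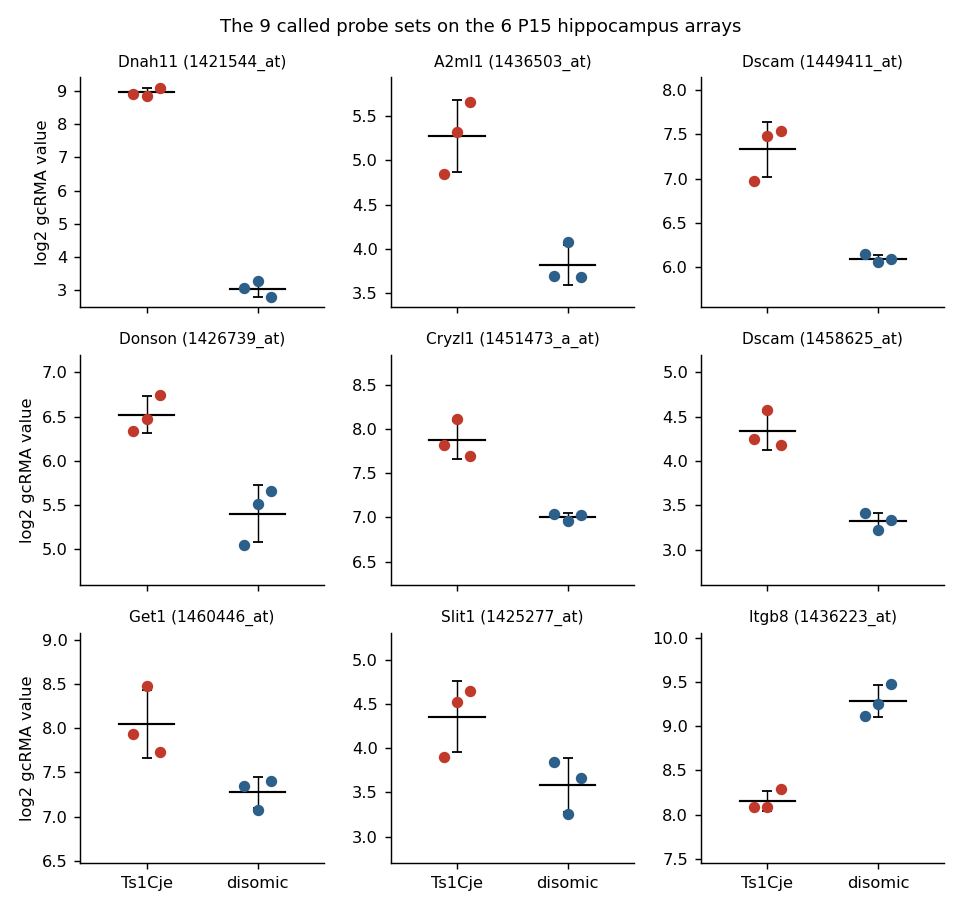
log2 gcRMA value of the 9 called probe sets on the 3 Ts1Cje (left) and the 3 disomic (right) P15 hippocampus arrays; points are mice, the line is the mean and the bar the SD. The Ts1Cje and disomic points do not overlap in any panel, and the axis of Dnah11 spans more than the others.

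Dnah11, which encodes a heavy chain of the dynein arms that move cilia, was the most changed gene. It lay at 8.92, 8.86 and 9.10 in Ts1Cje hippocampus, against 3.06, 3.28 and 2.80 in disomic hippocampus, and no disomic array came near a Ts1Cje array. The mean was 8.96 ± 0.12 in Ts1Cje and 3.05 ± 0.24 in disomic hippocampus (SD, n = 3 each), a difference of 5.91 (SE 0.22, adjusted p = 2.18e-27). The disomic level lay below the median of all probe sets on these arrays (3.23 to 3.26), so that a level above background was not shown there and the size of the difference is that of the gcRMA scale. The difference was 5.79 without both displaced arrays. Dnah11 thus went in the direction opposite to the one its single copy would give.

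Itgb8, the integrin beta 8 chain, which on glia and neural progenitors releases active TGF-beta from its latent form, was the one called probe set that was lower. It lay at 8.08, 8.09 and 8.29 in Ts1Cje, against 9.12, 9.25 and 9.47 in disomic hippocampus. The groups were separated by more than the range within either. The difference was -1.13 (SE 0.16, 95% interval -1.45 to -0.80, adjusted p = 0.000121), an interval that contains the loss of 1 unit given by a single copy, and it was -1.03 without both displaced arrays (adjusted p = 0.011).

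The other 4 measured genes of the single-copy segment were not called. Tmem196, a membrane protein gene, was at 3.89, 4.17 and 4.01 in Ts1Cje and 4.42, 4.86 and 5.44 in disomic hippocampus, without overlap, and differed by -0.88 (adjusted p = 0.824). Sp4, a zinc finger transcription factor of neurons, was at 4.40, 5.48 and 4.31 in Ts1Cje and 5.33, 5.79 and 5.61 in disomic hippocampus at its brighter probe set, with overlap and a difference of -0.84 (SE 0.37). Macc1 and Sp8 stayed between 2.04 and 2.65 on all 6 arrays and differed by 0.35 and -0.07.

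The promoters of Dnah11 and Itgb8 are printed because both genes lie in the same single-copy segment and moved in opposite directions. They run from 250 bases before to 50 bases after the RefSeq start (build GRCm38.p6), with each CG dinucleotide in capitals.
Dnah11, chr12:118198994-118199293, minus strand: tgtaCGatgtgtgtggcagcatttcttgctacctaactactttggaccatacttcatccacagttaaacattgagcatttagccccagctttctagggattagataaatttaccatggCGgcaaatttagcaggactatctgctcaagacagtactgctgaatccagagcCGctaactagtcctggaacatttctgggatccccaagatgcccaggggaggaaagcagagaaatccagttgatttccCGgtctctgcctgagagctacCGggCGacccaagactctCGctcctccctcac
Itgb8, chr12:119238227-119238526, minus strand: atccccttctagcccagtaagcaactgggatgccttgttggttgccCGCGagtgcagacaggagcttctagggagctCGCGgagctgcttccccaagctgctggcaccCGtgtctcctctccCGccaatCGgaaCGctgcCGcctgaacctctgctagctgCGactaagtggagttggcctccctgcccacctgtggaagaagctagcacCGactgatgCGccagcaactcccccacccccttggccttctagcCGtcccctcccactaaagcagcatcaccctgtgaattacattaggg
Dnah11 held 7 CG dinucleotides, which read the same on both strands, and Itgb8 held 13, against a median of 7 (quartiles 3 and 20) over 32851 promoters of the same length, of which 94.6% held at least 1. The letters CCAAT, searched on both strands, were found in Itgb8 and not in Dnah11, and in 37.4% of all these promoters, whereas TATAAA was in neither and in 13.6%.

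Outside both segments, A2ml1, an alpha-2-macroglobulin-like inhibitor of proteases, was higher in Ts1Cje. It lay at 4.85, 5.32 and 5.66 in Ts1Cje and at 3.70, 4.07 and 3.68 in disomic hippocampus, with a gap between the groups. The difference was 1.46 (SE 0.23, adjusted p = 0.000787), and 1.39 without both displaced arrays (adjusted p = 0.0228). In cerebral cortex and cerebellum at P15 the differences of A2ml1 were -0.01 and -0.04, and in hippocampus at P1, P30 and P84 they were 0.25, 0.77 and 0.21, none of them called. The effect at P15 in hippocampus exceeded the mean of the other regions by 1.48 (95% interval 0.92 to 2.05) and the mean of the other ages by 1.05 (0.52 to 1.58), with unadjusted p of 2.60e-06 and 0.000229, but adjusted over all probe sets these were 0.117 and 1.0.

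Slit1, a secreted ligand of Robo receptors that repels growing axons, was called at a dim probe set. It lay at 3.90, 4.52 and 4.65 in Ts1Cje and 3.85, 3.25 and 3.66 in disomic hippocampus, where the lowest Ts1Cje and the highest disomic array differed by less than the spread within either group. The difference was 0.77 (SE 0.15, adjusted p = 0.0288). It was lost without both displaced arrays (adjusted p = 0.0906) and without Ts1Cje replicate 2 (0.466), Ts1Cje replicate 3 (0.446) or disomic replicate 2 (0.659) or 3 (0.0757). The brighter probe set of Slit1 went the other way, at 7.05, 5.69 and 6.81 in Ts1Cje and 6.71, 7.15 and 7.24 in disomic hippocampus, a difference of -0.52 that was not called (adjusted p = 1.0).

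The second comparison concerned gene dosage in the triplicated segment. Of its 77 measured genes, 38 had a mean of at least 5 over all 72 arrays and are called expressed here. All 38 had a positive difference, from 0.18 to 1.24, with a median of 0.67 or 1.59-fold, whereas the median was 0.03 over 7716 expressed genes outside both segments. The mean of the 38 genes was 8.25, 8.32 and 8.26 in Ts1Cje, against 7.58, 7.63 and 7.63 in disomic hippocampus, so that the mice of a group differed by less than 0.1 and the groups by 0.66. In 34 of the 38 genes the lowest Ts1Cje array was above the highest disomic array, which held for 6.88% of expressed genes outside both segments, and in none did every Ts1Cje array lie below. The difference exceeded 0.58 for 25 of the 38 genes, against 1.63% of the genes outside.

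**Figure D3:**
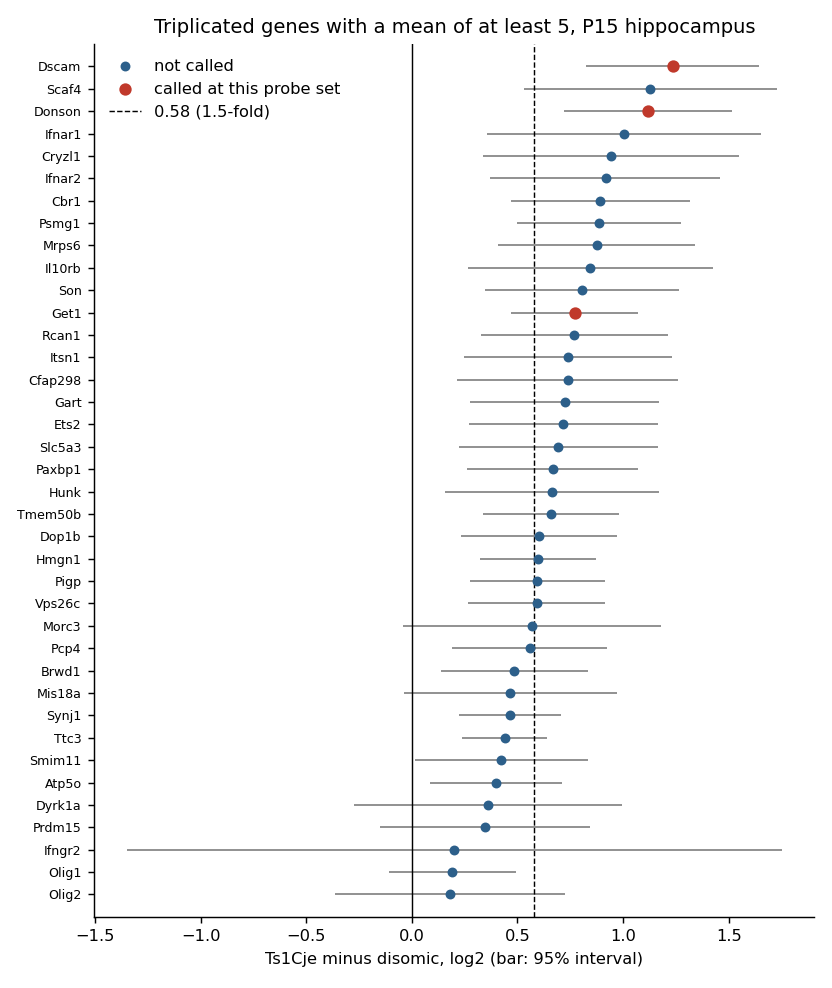
Difference between Ts1Cje and disomic P15 hippocampus (x axis, log2; bars are 95% intervals from limma) for the 38 expressed triplicated genes, 1 row each. All 38 points lie right of 0 and 25 lie right of the dashed line at 0.58.

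The 95% interval of a gene contained 0.58 for 35 of the 38 genes. It lay above 0.58 for Dscam and Donson and below it for Olig1, and for 6 genes it contained both 0 and 0.58. Few of these differences passed the threshold over all probe sets: 31 of the 38 had an unadjusted p under 0.05, but 4 triplicated genes were called.

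Dscam, a cell adhesion molecule through which neurites of the same neuron avoid each other, had the largest difference of the 38. Its brightest probe set lay at 6.97, 7.49 and 7.54 in Ts1Cje and at 6.15, 6.06 and 6.09 in disomic hippocampus, with the disomic mice within 0.1 of each other. The difference was 1.24 (SE 0.20, adjusted p = 0.00175), 1.23 without both displaced arrays (adjusted p = 0.0228) and 1.16 without Ts1Cje replicate 2, where the call was lost (adjusted p = 0.0526). A dimmer probe set was also called, at 4.24, 4.58 and 4.19 in Ts1Cje and 3.41, 3.22 and 3.33 in disomic hippocampus, by 1.02 (adjusted p = 0.0146; 0.0744 without both displaced arrays). The third probe set differed by 0.77 (adjusted p = 0.0736), and those near background by -0.20 and 0.09.

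Donson, a component of the machinery that starts and protects DNA replication forks, lay at 6.34, 6.48 and 6.75 in Ts1Cje and 5.05, 5.51 and 5.66 in disomic hippocampus, without overlap. The difference was 1.12 (SE 0.20, adjusted p = 0.00653) and 1.24 without both displaced arrays (adjusted p = 0.0133). The call was lost without Ts1Cje replicate 2 (adjusted p = 0.0526), Ts1Cje replicate 3 (0.0875) or disomic replicate 1 (0.257).

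Cryzl1, a quinone oxidoreductase-like gene, was called at 1 of its 4 expressed probe sets. There it lay at 7.81, 8.11 and 7.69 in Ts1Cje and 7.04, 6.96 and 7.02 in disomic hippocampus, and the difference was 0.86 (SE 0.16, adjusted p = 0.0132; 0.0744 without both displaced arrays). Its brightest probe set differed by 0.94 (adjusted p = 0.93) and the others by 0.52 and 0.18. Get1, part of the receptor that inserts tail-anchored proteins into the endoplasmic reticulum, lay at 7.93, 8.48 and 7.73 in Ts1Cje and 7.35, 7.08 and 7.41 in disomic hippocampus. Its difference was 0.77 (SE 0.15, adjusted p = 0.0256; 0.0734 without both displaced arrays). Both calls were lost without Ts1Cje replicate 2 (adjusted p = 0.367 for Cryzl1 and 1.0 for Get1), and each was also lost without any one of the 3 disomic arrays, with adjusted p up to 0.137 and 0.378.

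The 5 expressed triplicated genes with the smallest differences were Olig2, Olig1, Ifngr2, Prdm15 and Dyrk1a. Olig1 lay at 10.43, 10.46 and 10.62 in Ts1Cje and 10.38, 10.21 and 10.35 in disomic hippocampus, a difference of 0.19 (95% interval -0.11 to 0.49). Olig2 lay at 7.38, 6.70 and 7.66 in Ts1Cje and 7.11, 6.91 and 7.19 in disomic hippocampus and overlapped, with a difference of 0.18 (-0.36 to 0.72). Olig1 and Olig2 thus lay well above the array medians in both genotypes, with differences smaller than the dosage line. Prdm15, a zinc finger regulator of early development, differed by 0.35 (-0.15 to 0.84).

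Dyrk1a, a kinase of neural development, lay at 8.96, 8.39 and 8.36 in Ts1Cje and 8.30, 8.17 and 8.17 in disomic hippocampus at its brightest probe set. The groups did not overlap, and the interval of the difference of 0.36 (-0.27 to 1.00) contained both 0 and 0.58. Ifngr2, the second chain of the interferon gamma receptor, lay at 8.24, 5.27 and 5.57 in Ts1Cje and 7.12, 5.91 and 5.45 in disomic hippocampus. Replicate 1 was the highest array of both genotypes, and the difference of 0.20 had an interval of -1.35 to 1.75, the widest of the 38.

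The 39 triplicated genes with a mean under 5 had a median difference of 0.05. Of these 39, 7 lay above the disomic arrays on every Ts1Cje array, against 6.69% of all genes. Another 2, Sim2 and Kcne1, lay below on every array, against 4.76% of all genes, both near background. Kcnj6, the potassium channel subunit Girk2, was among the dim genes at 3.81, 3.77 and 4.18 in Ts1Cje and 3.86, 3.80 and 3.86 in disomic hippocampus, a difference of 0.08. With all 77 genes the median was 0.40.

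Where a gene had several expressed probe sets, they did not always give the same difference. The widest spans were those of Son, a splicing cofactor, from -0.44 to 0.81, of Ttc3, a ubiquitin ligase, from 0.12 to 1.26, and of Itsn1, an endocytic scaffold, from -0.34 to 0.74. Ifnar1 gave 1.00 and 1.06 and Hmgn1, a nucleosome binding protein, 0.53 to 0.63.

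The dosage difference was not seen proximal to Sod1. Over 210 expressed genes of MMU16 proximal to Sod1 the median difference was 0.04, and over the nearest 20 it was 0.00. Of the 210 genes, 14 (6.67%) lay above and 11 (5.24%) below the disomic arrays on every Ts1Cje array, against 6.88% and 3.50% of expressed genes outside both segments, and none was called. Sod1 itself, the superoxide dismutase at the edge of the segment, averaged 11.43 ± 0.63 in Ts1Cje and 10.38 ± 0.33 in disomic hippocampus (SD, n = 3 each) at its brightest probe set, without overlap. The difference was 1.05 (SE 0.34) and was not called (adjusted p = 0.93). The probe sets of Sod1 did not give the same result: a second one above a mean of 5 differed by 0.90 without overlap (adjusted p = 0.365), and the third by -0.06 with overlap (95% interval -0.43 to 0.31). One of the copies of Sod1 is truncated in this model, and where the probe sets lie relative to the truncation was not examined.

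**Figure D4:**
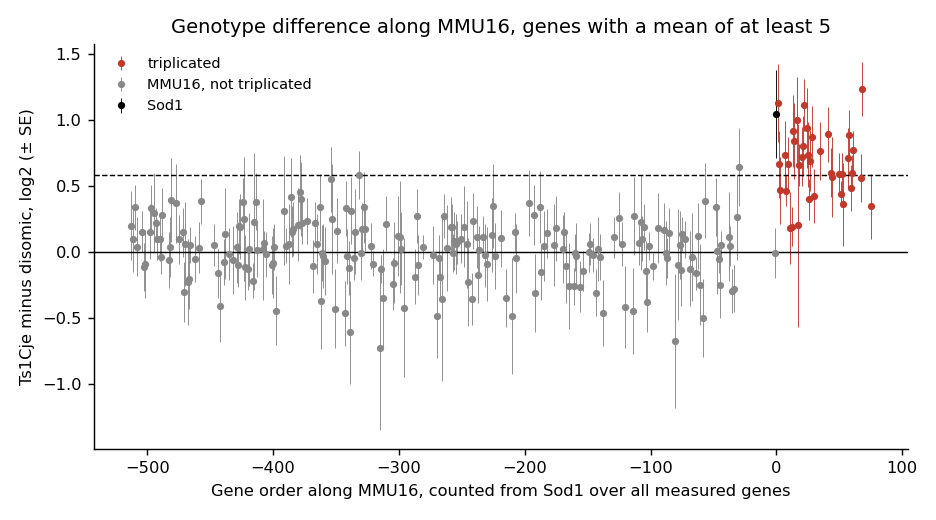
Difference between Ts1Cje and disomic P15 hippocampus (y axis, log2, ± SE) of the expressed MMU16 genes in their order along the chromosome, counted from Sod1 (x axis). The genes before Sod1 scatter around 0 with a median of 0.04, and the triplicated genes after it have a median of 0.67.

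Interferon signalling was followed through its parts because receptor genes lie in the segment. Ifnar1 and Ifnar2, the chains of the type I interferon receptor, lay above the disomic arrays on every Ts1Cje array. Ifnar1 was at 6.20, 6.55 and 6.41 in Ts1Cje and 5.29, 5.51 and 5.33 in disomic hippocampus, a difference of 1.00 (SE 0.32, adjusted p = 0.935). Ifnar2 was at 5.63, 5.70 and 5.89 in Ts1Cje and 5.15, 4.42 and 4.90 in disomic hippocampus, a difference of 0.92 (SE 0.27, adjusted p = 0.682), and at a dimmer probe set the difference was 0.83 with an adjusted p of 0.0635. Il10rb, the shared chain of the interleukin 10 and interferon lambda receptors, differed by 0.85 (SE 0.29).

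Further along the pathway, the 13 measured receptor, kinase, Stat, Irf and Socs genes that are not triplicated had a median difference of -0.10. Among them the kinases Jak1 and Jak2 differed by -0.27 and 0.11 (-0.48 and -0.02 at other expressed probe sets of Jak1 and -0.62 at another of Jak2) and Tyk2 by 0.52 (adjusted p = 1.0). The 23 measured interferon-stimulated genes had a median of 0.10, with 18 above 0, 5 below 0 and none called in either direction. Their mean per array was 3.91 to 4.01 in Ts1Cje and 3.81 to 3.88 in disomic hippocampus, without overlap. On every Ts1Cje array 3 of them (Ifit2, Trim30a and Lgals3bp) lay above the disomic arrays and none lay below, against 6.69% and 4.76% of all genes. Of the 23 genes 5 had a mean of at least 5. The 3 of these with the largest t were B2m, H2-D1 and H2-K1, genes of antigen presentation, which differed by -0.36, 0.20 and 0.13.

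**Figure D5:**
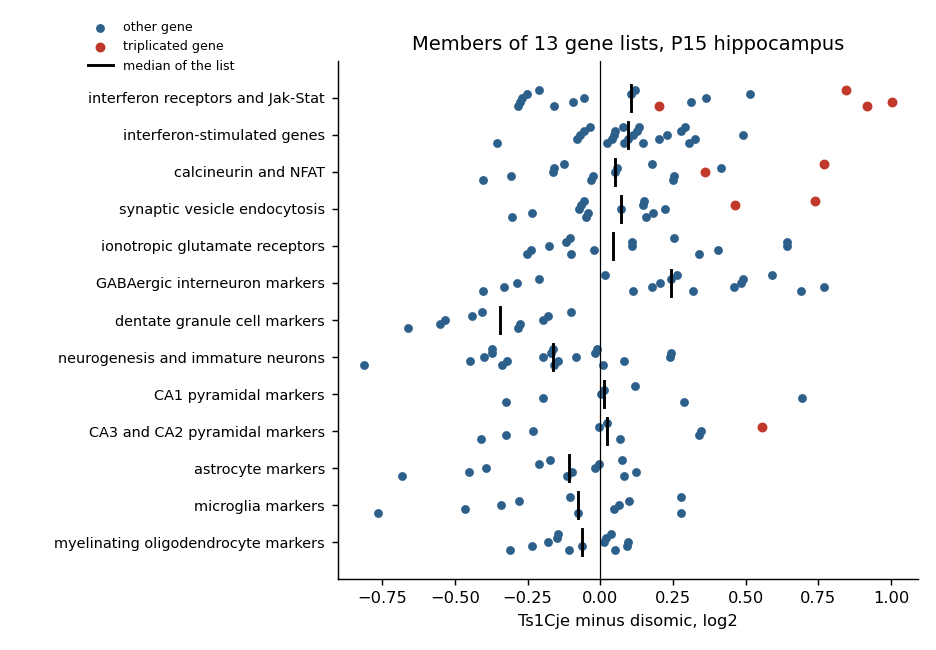
Difference between Ts1Cje and disomic P15 hippocampus (x axis, log2) of every measured member of 13 gene lists (rows), each point 1 gene and the vertical bar the median of the list. All 10 dentate granule cell markers lie left of 0, and the interferon receptor genes at the right are triplicated.

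In the calcineurin and NFAT list, none of 15 genes was called and the 13 that are not triplicated had a median of -0.03. Rcan1, the triplicated inhibitor of calcineurin, lay at 7.94, 7.93 and 7.93 in Ts1Cje and 7.08, 7.30 and 7.12 in disomic hippocampus, and differed by 0.77 (adjusted p = 0.54). Its other expressed probe set lay at 6.96, 5.14 and 5.25 in Ts1Cje and 6.20, 5.39 and 5.41 in disomic hippocampus, with overlap and a difference of 0.12 (SE 0.45). Rcan2 differed by 0.42 and Ppp3ca, the catalytic subunit of calcineurin, by -0.40, both without overlap of the groups and neither called (adjusted p = 1.0).

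Among synaptic genes, none of 15 genes of vesicle endocytosis was called, and the leading differences were those of the triplicated Synj1, a lipid phosphatase that uncoats vesicles (0.47, interval 0.22 to 0.71), and Itsn1 (0.74, interval 0.25 to 1.23). None of 14 ionotropic glutamate receptor genes was called (median 0.04). Grik1, a kainate receptor gene just proximal to the segment, lay at 6.86, 7.16 and 6.47 in Ts1Cje and 5.89, 6.30 and 6.37 in disomic hippocampus, without overlap, and differed by 0.64 (adjusted p = 1.0). The 9 GABA-A receptor genes had a median of -0.08 and the 14 plasticity genes of -0.01, with Bdnf, a neurotrophin, at 8.26, 7.79 and 8.36 in Ts1Cje and 8.43, 8.59 and 8.48 in disomic hippocampus.

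Cell type markers were compared as levels in bulk tissue, which cannot tell cell number from RNA per cell. All 10 dentate granule cell markers had a negative difference, with a median of -0.35, and none was called. Dsp, a desmosomal protein of granule cells, lay at 6.93, 7.89 and 7.79 in Ts1Cje and 7.93, 8.07 and 8.25 in disomic hippocampus and was 1 of 2 markers with every Ts1Cje array below every disomic array, which held for 4.76% of all genes. It differed by -0.55 (adjusted p = 1.0). Prox1, the transcription factor that specifies granule cells, lay at 6.85, 7.50 and 7.69 in Ts1Cje and 8.32, 7.48 and 7.84 in disomic hippocampus at its brightest probe set, with overlap and a difference of -0.53 (SE 0.33). Its other probe sets differed by -1.64 and -0.77.

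The mean of the 10 granule cell markers ranged from 5.60 to 6.10 in Ts1Cje and from 6.08 to 6.20 in disomic hippocampus, so that the groups overlapped. The median was -0.35 without both displaced arrays as well. The 19 measured genes of immature neurons had a median of -0.16, with 15 below 0 and none called. Their mean per array was 7.42 to 7.546 in Ts1Cje and 7.595 to 7.682 in disomic hippocampus, without overlap. Neurod1, a factor of granule cell differentiation, lay at 8.66, 8.69 and 9.06 in Ts1Cje and 9.01, 9.38 and 9.36 in disomic hippocampus (difference -0.45, adjusted p = 1.0), and Dcx, a microtubule protein of migrating neurons, lay at 9.22, 9.19 and 9.23 in Ts1Cje and 9.57, 9.58 and 9.62 in disomic hippocampus, a difference of -0.37 with an SE of 0.33. A second expressed probe set of each gene did not show this, with differences of 0.12 for Neurod1 and 0.06 for Dcx, both with overlap. CA1 markers had a median of 0.01 and CA2 and CA3 markers of 0.02.

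GABAergic interneuron markers leaned the other way, with a median of 0.24 over 17 genes, 13 of them above 0, and none called. Slc32a1, the vesicular GABA transporter, lay at 7.03, 7.79 and 7.46 in Ts1Cje and 6.47, 6.71 and 6.78 in disomic hippocampus, a difference of 0.77 (SE 0.27, adjusted p = 1.0). Dlx1, a factor of the interneuron lineage, differed by 0.69 without overlap (adjusted p = 0.95), whereas Gad1, which makes GABA, lay between 11.1 and 11.4 on all 6 arrays and differed by 0.02, and by -0.49 with overlap at its other probe set. Per array the marker mean was 7.31 to 7.34 in Ts1Cje and 7.10 to 7.15 in disomic hippocampus. Some lists for neighbouring tissue leaned the same way, but not all. The thalamus and habenula markers had a median of -0.04, with 5 above 0 and 7 below 0. The amygdala and hypothalamus markers had a median of 0.003, with 5 above 0 and 5 below 0. Of the cortical layer markers 9 of 10 were above 0 with a median of 0.21, and their mean was 6.01 to 6.23 in Ts1Cje and 5.89 to 5.91 in disomic hippocampus. Of the striatum markers 6 of 8 were above 0 with a median of 0.26, and their mean was 4.41 to 4.71 in Ts1Cje and 4.26 to 4.44 in disomic hippocampus. Of the subiculum and entorhinal markers 6 of 9 were above 0 with a median of 0.17, and their mean was 6.03 to 7.01 in Ts1Cje and 6.32 to 6.67 in disomic hippocampus. The part of neighbouring tissue in the interneuron values was not tested.

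Glial lists had medians near 0: astrocytes -0.11, microglia -0.08, myelinating oligodendrocytes -0.06 and oligodendrocyte precursors 0.18, the last being 0.08 without the triplicated Olig1 and Olig2. Of the 11 measured microglia markers, 3 lay below the disomic arrays on every Ts1Cje array and none above, against 4.76% and 6.69% of all genes. The 5 microglia markers with a mean of at least 5 had a median of 0.10, and no microglia marker was called. Sox10, a factor of the oligodendrocyte lineage, lay at 6.20, 6.02 and 7.10 in Ts1Cje and 5.84, 5.97 and 5.70 in disomic hippocampus (difference 0.61, adjusted p = 1.0). Endothelial, meningeal and choroid plexus lists had medians of 0.06, 0.16 and -0.04. The 13 measured cholesterol synthesis genes, active during myelination, had a median of -0.02 and the 18 respiratory chain genes of -0.01, the triplicated Atp5o, a subunit of the ATP synthase, being the one with the largest t (0.40, interval 0.09 to 0.71).

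The last comparison asked whether the genotype effect at P15 in hippocampus differed from that at the other ages and in the other regions. No probe set was called in limma, either against the mean of the hippocampus at P1, P30 and P84 (1852 with an unadjusted p under 0.05, lowest adjusted p 0.867) or against the mean of cerebral cortex and cerebellum at P15 (645, lowest adjusted p 0.117). Dnah11 differed by 6.02, 5.88 and 6.02 in hippocampus at P1, P30 and P84 and was called each time, and its effect at P15 exceeded their mean by -0.06 (interval -0.57 to 0.45). Itgb8 differed by -1.12, -1.02 and -1.19 at the other ages, and its effect at P15 lay -0.02 from their mean (-0.39 to 0.36).

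For the called triplicated genes, the effect at P15 exceeded the mean of the other ages by 0.41 for Dscam (interval -0.06 to 0.88), 0.11 for Donson (-0.35 to 0.57), 0.14 for Cryzl1 (-0.23 to 0.51) and 0.18 for Get1 (-0.17 to 0.53). Slit1, at its dim called probe set, stood further apart, by 0.52 from the other ages (0.16 to 0.87) and 0.79 from the other regions (0.42 to 1.17), with adjusted p of 1.0 for both. Its differences in hippocampus at P1, P30 and P84 were -0.09, 0.66 and 0.20, none of them called. The value at P30 was thus close to the 0.77 at P15. The median over the 38 expressed triplicated genes was 0.64, 0.67, 0.70 and 0.69 in hippocampus at P1, P15, P30 and P84, and 0.60 in cerebral cortex and 0.78 in cerebellum at P15.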

How the data were processed

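Total RNA of 3 brain regions at 4 ages was labelled and hybridized to Affymetrix whole-genome mouse arrays, with a separate array for each region of a mouse. The authors deposited log2 values made with gcRMA, which corrects background by probe base composition, normalizes arrays to one another and gives 1 value per probe set; no version was named. Nothing was normalized again, and scanner files were not used here. Symbols came from the platform annotation: of 45101 probe sets, 34958 had 1 symbol, 932 several and 9211 none, and 34754 of the probe sets with 1 symbol were matched by gene identifier to RefSeq (GRCm38.p6), used for names and gene order. Each of 18194 genes was read at its probe set of highest mean over all arrays.

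Differences (Ts1Cje minus disomic) were fitted in limma 3.58.1 (R 4.3.3) over 72 arrays and 24 group means (51.73 total degrees of freedom), with Benjamini-Hochberg adjustment over all probe sets and the thresholds of the methods; the script was tested on simulated data. Differences of effects were contrasts of this fit, and lists were described by counts and medians. The SEs and p-values rest on a residual variance pooled over all 72 arrays, not on the spread of the compared mice alone. The number of 3 mice per group limits the precision. By the paper's description the 3 regions came from the same mice. The fit treated their arrays as independent, also in the contrast with the other regions. With mouse as a random effect (correlation 0.129), the same 9 probe sets were called. The members, the 36 gene lists and the alternatives were chosen with earlier results of these data known. Named genes were the called genes of both segments, up to 15 called genes per direction outside them, the called members of each list or up to 3 expressed members with the largest t, and the 5 expressed triplicated genes with the lowest differences; not all are printed, and others (for example Kcnj6, Jak1, Jak2, Tyk2, Dsp, Dcx, Dlx1, Gad1, Macc1, Sp8, Tmem196, Son, Ttc3 and Sod1) were named after their values were seen. The alternatives are given in the closing section.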

Additional observations from a re-analysis of the deposited data

How the results depend on the processing

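The number of called probe sets (9) and of called triplicated genes (4) depended on the setting, and the cause was not tested. Leaving out 1 array gave 3 to 24 probe sets and 0 to 7 triplicated genes. Both displaced arrays kept in the region of their labels gave 25 and 9, and both left out gave 5 and 2. Smaller fits, with fewer degrees of freedom, gave 3 and 0 (the 24 hippocampus arrays) and 1 and 0 (the 6 arrays). The calls kept were Dnah11, Itgb8 and A2ml1 with the 24 arrays and Dnah11 alone with the 6. Leaving out 3 dim arrays of other groups gave 22 and 11, array quality weights 88 and 22, quantile normalization 17 and 9, and adjustment over all 12 comparisons together 20 and 8. Without the displaced and the dim arrays, a setting chosen after seeing the data, 11 probe sets were called.

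A replicate block, nested in age, gave 32 and 15. The labels do not say whether the numbers pair the mice, and deviations from means of 3 arrays cannot decide it. Those of same-numbered arrays correlated at 0.63, 0.07 and 0.17 for replicates 1, 2 and 3. Ts1Cje replicate 2 correlated best with disomic replicate 3 (0.56). All 9 probe sets called in the report were also called with the block, with array weights, with quantile normalization and without the dim arrays.

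For the difference from the other regions, where 0 probe sets were called, 4 were called with the labels kept, 3 with array weights and 0 to 2 on leaving out 1 array. It could not be computed in the fits of hippocampus arrays alone. The median of the expressed triplicated genes (0.67) was 0.63 to 0.68 on leaving out 1 array, 0.54 with the mean of all probe sets of a gene and 0.40 over all 77 genes. The dentate granule cell median was -0.52 to -0.25 on leaving out 1 array and 0.16 with the labels kept. No called gene changed direction in any alternative run. Low signal limits the dim genes, for which gcRMA values near the array median show no level above background.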

Other observations

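These genes were chosen after their values were seen. Trhr, the receptor of thyrotropin-releasing hormone, lay at 5.52, 6.09 and 5.49 in Ts1Cje and 4.27, 4.50 and 3.70 in disomic hippocampus, without overlap, a difference of 1.54 in limma (SE 0.35, adjusted p = 0.102). Klk8, a secreted protease that acts on synaptic adhesion in the hippocampus, lay at 4.90, 5.21 and 5.48 in Ts1Cje and 5.92, 5.97 and 6.67 in disomic hippocampus, a difference of -0.99 (SE 0.21, adjusted p = 0.0635). Neither was called. Of the 25 measured neuropeptide and receptor genes, 5 lay above and 2 below the disomic arrays on every Ts1Cje array, with a median difference of 0.11, against 6.69% and 4.76% of all genes.

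Some probe sets varied widely among mice of 1 genotype. Of 12275 probe sets with 1 symbol and a mean of at least 5, 301 ranged over more than 2 log2 units among the Ts1Cje arrays and 56 among the disomic arrays. Of the 301, Ts1Cje replicate 1 was the highest in 267 and Ts1Cje replicate 2 the lowest in 261, and of the 56, disomic replicate 1 was the highest in 47. The 301 stood for 262 genes, 230 of which had more than 1 expressed probe set. In 115 of these 230 genes, another expressed probe set ranged over less than 0.5 across all 6 arrays. Gja1, the astrocyte gap junction gene, lay at 9.03, 3.86 and 4.85 in Ts1Cje and 9.44, 7.31 and 5.52 in disomic hippocampus at a probe set where its level varied, but at 11.70, 11.45 and 11.45 in Ts1Cje and 11.72, 11.77 and 11.81 in disomic hippocampus at another. A dimmer probe set of Dyrk1a lay at 6.56, 3.14 and 2.63 in Ts1Cje and 5.89, 4.15 and 3.56 in disomic hippocampus.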
